A study of Danio rerio with 15 samples.

Results

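Larvae of the middle dose were set against both ends of the dose series. The contrast took the 5 Low libraries against the mean of the 5 Control and the 5 High libraries, in 1 fit with 1 coefficient per group over all 15 libraries, which is every library of the series. It was tested in the 22012 genes, of 32520 in the count table, that passed the filter on low counts. The libraries held RNA of whole WT zebrafish larvae at 5 days post fertilization. The larvae themselves were kept in arsenic-free medium, and the groups differ in what their parents ate: for 60 days adults of all groups received blackworms (Lumbriculus variegatus) at 3.5% of body weight. For the Low group those worms had spent 14 days in water with 2.5 mg/L sodium arsenite, and they held 32.4 µg/g arsenic per the sample labels or 33.42 µg/g dry weight per the protocol text. For Control the worm water held 0 mg/L and the worms less than 0.05 µg/g, and for High the water held 5.0 mg/L and the worms 72.47 µg/g. A number of 20 larvae stands in the extraction protocol without saying whether it is per library, and offspring are described as reared to 30 days, an age not tied to the sequenced larvae. Whether the libraries of a group come from separate clutches or parents is not stated, so the p-values cover just the spread among these libraries.

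A response in which a middle dose departs from both a lower and a higher one is called non-monotonic. Such responses are best known from hormone-like chemicals. A larva at this age swims and hunts by sight. Its retina is dominated by cones, whose light response runs through opsins, a cyclic nucleotide gated channel and arrestin, and whose calcium is cleared by sodium, potassium and calcium exchangers. Its heart beats, and muscle and skeleton are still growing. Neurons report recent firing through immediate early genes, which encode transcription factors made within minutes of a stimulus. Inorganic arsenic is methylated in vertebrate cells by As3mt, with methyl groups from the methionine cycle.

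Library totals ran between 22.6 and 27.2 M counts (mega counts) in Low, 23.8 and 59.9 M in Control and 21.2 and 36.1 M in High. Libraries within each group differed strongly in transcripts of the digestive organs. The mean log2 CPM (counts scaled to library size, in counts per M) of 137 pancreas, intestine and liver genes was -0.72 to 1.4 in Low 1 to 4 and 5.06 in Low 5. It spanned -0.31 to 5.5 in Control and -0.34 to 5.52 in High. Low 5 also differed from Low 1 to 4 in many further lists, and the main counts and medians are given with and without it below.

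Just 2 genes were called, that is, had an adjusted p below 0.05 in the quasi-likelihood test of edgeR, with p-values adjusted by Benjamini and Hochberg's method over all genes tested, which is 0.00909% of them. The cone and neuron exchanger gene slc24a2 was lower in Low than the mean of Control and High. The gene vwa10.1, named for its von Willebrand factor A domain, was higher. Neither was called for Low against Control, and both were called for High against Control. An adjusted p below 0.1 was reached by 110 genes, 57 higher and 53 lower in Low. At an unadjusted p below 0.05 stood 3504 genes (15.9%), of which 2133 were higher in Low (9.69% of those tested) and 1371 lower (6.23%). The median log2 fold change over all genes was 0.002, and the biological coefficient of variation was 36.6%.

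A contrast against a mean can be passed by a gene in which Low departs from 1 of the groups alone. A second test therefore asked for a departure from Control and from High in the same direction, with the larger of both p-values adjusted over all genes. By that test 0 genes were called (smallest adjusted p = 0.78, edgeR), with 113 called without Low 5, 10 by DESeq2 and 0 by limma voom. At an unadjusted p below 0.05 against each group stood 974 genes, with Low above both in 555 (2.52%) and below both in 419 (1.9%). All 5 Low libraries lay above all 10 others in 20 genes (0.0909%) and below all 10 others in 15 (0.0681%). In the same fit, the pairwise comparisons by edgeR called 0 genes for Low against Control (2085 at an unadjusted p below 0.05), 377 for Low against High and 115 for High against Control. These comparisons share libraries. Of the 110 genes with an adjusted p below 0.1 in the contrast, 94 were called in Low against High.

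The Na+/Ca2+-K+ exchanger slc24a2 (ENSDARG00000042988) moves calcium out of cones and neurons. It had 20.5, 28.2, 18.4, 15.9 and 20.8 CPM in Low 1 to 5, against 26.5, 29.6, 34.4, 31.8 and 26.1 CPM in Control 1 to 5 and 70.1, 57.6, 63.5, 53.3 and 71.5 CPM in High 1 to 5. Every Low library lay below every High library, while Low 2 overlapped the Control range. The log2 fold change of the contrast was -1.06 ± 0.13 (SE; adjusted p = 0.0099, edgeR). It was -0.51 ± 0.14 against Control (adjusted p = 0.43) and -1.60 ± 0.14 against High (adjusted p = 0.00021), so that most of the contrast in slc24a2 lay between Low and High. High stood 1.09 ± 0.14 above Control on the same scale (adjusted p = 0.005). The call was lost without Low 1 (adjusted p = 0.074) and without Low 3 (adjusted p = 0.064), and the log2 fold changes were then -1.06 and -1.02.

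For vwa10.1 (ENSDARG00000077874) the values were 26.4, 20.4, 23.6, 33 and 26.5 CPM in Low 1 to 5, against 20.2, 21.9, 20.3, 18.2 and 16.2 CPM in Control and 11.2, 13.8, 12.5, 12.5 and 11.7 CPM in High. The Low and High libraries did not overlap, and Low 2 lay within the Control range. Between Low and the mean of the others the log2 fold change was 0.75 ± 0.10 (SE; adjusted p = 0.026, edgeR), made of 0.43 ± 0.12 against Control (adjusted p = 0.43) and 1.07 ± 0.12 against High (adjusted p = 0.0019). High against Control had a log2 fold change of -0.65 ± 0.12 (adjusted p = 0.033, edgeR). In the contrast the adjusted p was 0.15 without Low 1 and 0.1 without Low 4. The call was kept in 5 of the 15 fits that left out 1 library.

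**Figure D1:**
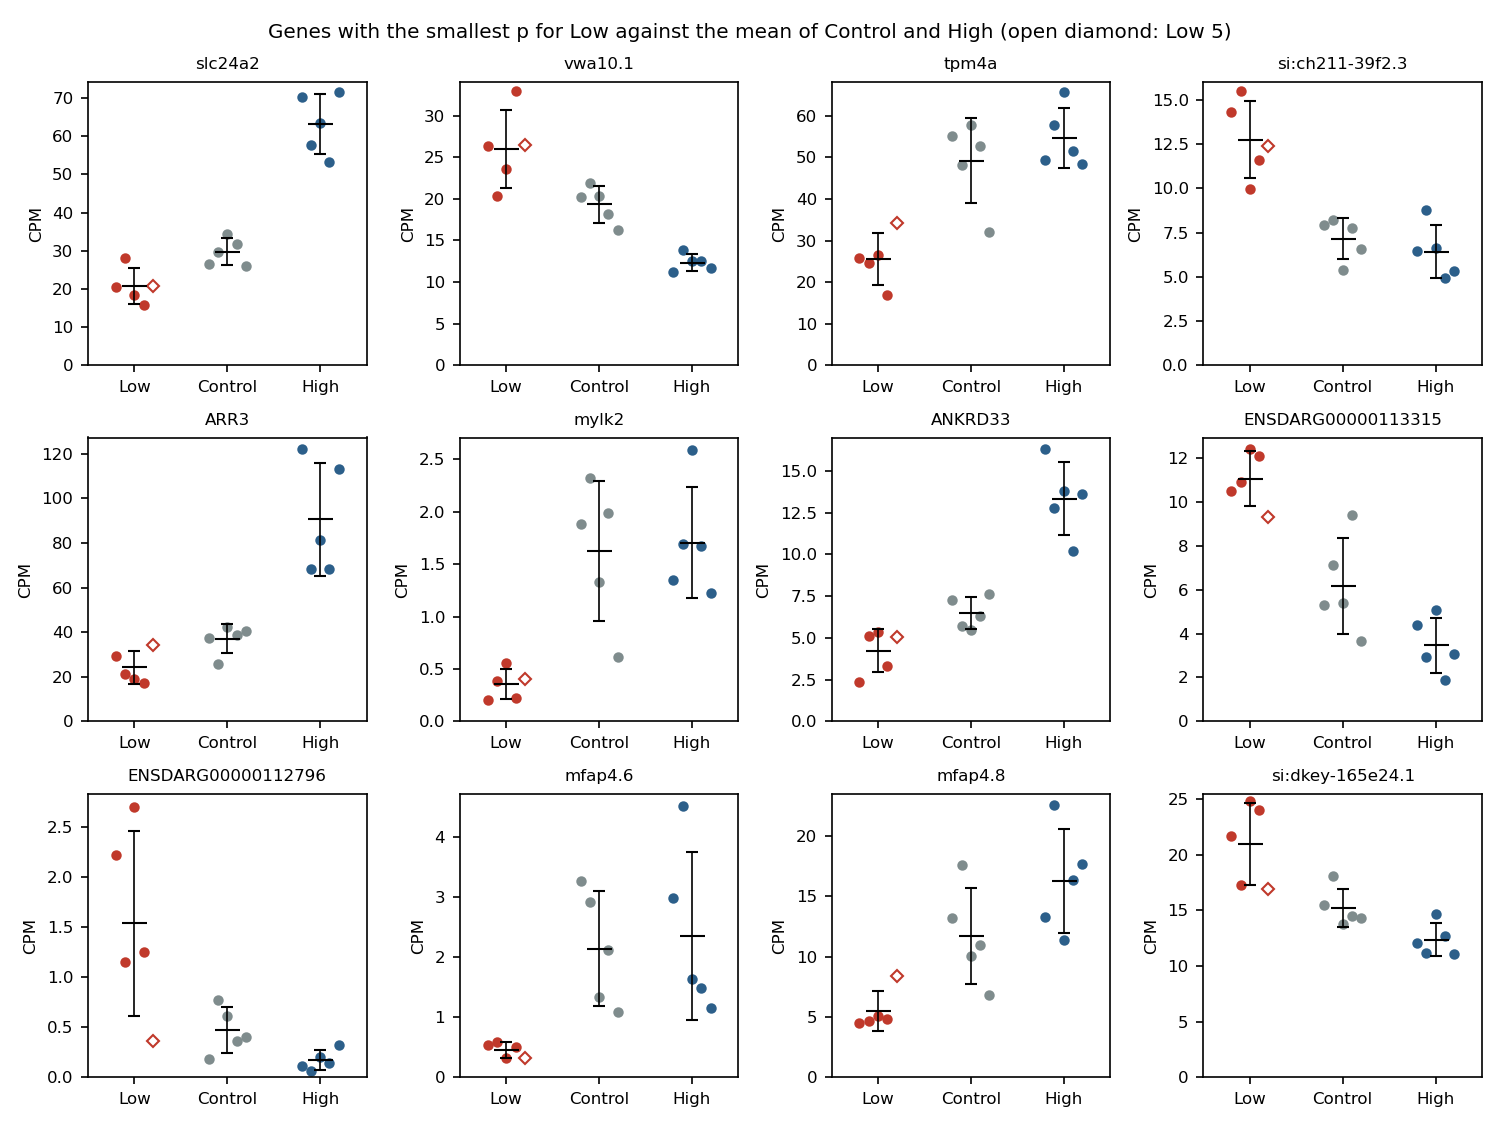
Counts per M (CPM, vertical axis from 0) in each library of Low, Control and High for the 2 called genes and the 10 next genes by p. Points are libraries, the open diamond is Low 5, and the bar and whiskers are the group mean and SD (n = 5); slc24a2 was lowest in Low and highest in High, while tpm4a and mylk2 had their lowest library in Low.

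Of the next 10 genes by p, which did not pass the threshold, ARR3 and ANKRD33 act in photoreceptors. ARR3 (ENSDARG00000098475), a cone arrestin that ends the light response, had 29.5, 21.2, 18.8, 17.3 and 34.1 CPM in Low, against 37.6, 25.8, 42.1, 38.9 and 40.5 CPM in Control and 122, 68.4, 81.3, 68.4 and 113 CPM in High. The symbol ARR3 is shared with another tested gene, whose values are not given here. The Low libraries were all below the High libraries, and the ranges of Low and Control met through Low 1, Low 5 and Control 2. ARR3 had a log2 fold change of -1.26 ± 0.20 (adjusted p = 0.054, edgeR). ANKRD33, a photoreceptor repressor of transcription in mouse, had 2.38 to 5.35 CPM in Low, 5.47 to 7.64 CPM in Control and 10.2 to 16.3 CPM in High, without overlap between Low and the others (log2 fold change -1.13 ± 0.18; adjusted p = 0.061). Further down by p, both genes under the symbol CNGA3, the cone channel subunit, had an adjusted p of 0.074, with log2 fold changes of -0.78 ± 0.14 for ENSDARG00000070726 and -1.20 ± 0.23 for ENSDARG00000012297. As for slc24a2, the difference from High exceeded that from Control: it was -1.90 ± 0.22 against -0.61 ± 0.22 for ARR3, and -1.65 ± 0.21 against -0.61 ± 0.20 for ANKRD33. High against Control had 1.29 ± 0.22 for ARR3 (adjusted p = 0.022, edgeR) and 1.04 ± 0.20 for ANKRD33 (adjusted p = 0.037). For the CNGA3 genes it had 0.83 ± 0.16 for ENSDARG00000070726 (adjusted p = 0.033) and 0.93 ± 0.25 for ENSDARG00000012297 (adjusted p = 0.098).

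The list of cone and rod phototransduction did not share that direction as a whole. At an unadjusted p below 0.05, 5 of 64 members tested were higher in Low (7.81%, against 9.69% of all genes). Another 8 were lower (12.5%, against 6.23%), and the median log2 fold change was 0.15. At an unadjusted p below 0.05 against each group, Low stood below both in 6 members and above both in 0. Of all genes, 1.9% stood below both and 2.52% above both. The single called member was slc24a2. The medium-wave cone opsin opn1mw2 pointed up, at 443, 316, 347, 261 and 246 CPM in Low against 247, 363, 301, 230 and 292 CPM in Control and 181, 131, 196, 137 and 173 CPM in High (log2 fold change 0.57 ± 0.15; adjusted p = 0.12). Its Low and Control libraries overlapped, and the log2 fold change was 0.17 ± 0.17 against Control and 0.98 ± 0.17 against High. The nuclear receptor rxrga had 6.09 to 6.70 CPM in Low, 6.57 to 7.75 CPM in Control and 8.96 to 10.9 CPM in High, and its log2 fold change was -0.39 ± 0.08 (adjusted p = 0.078). It was -0.13 ± 0.09 against Control and -0.65 ± 0.09 against High. High against Control had 0.51 ± 0.09 (adjusted p = 0.022, edgeR).

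Genes of muscle contraction made a second group near the threshold, and in tpm4a and mylk2 the difference from Control was close to that from High. The tropomyosin gene tpm4a (ENSDARG00000023963) encodes a protein that lies along actin filaments. It had 25.7, 24.6, 26.6, 16.9 and 34.3 CPM in Low 1 to 5, against 55.2, 48.2, 57.9, 52.7 and 32.0 CPM in Control 1 to 5 and 49.4, 57.9, 65.8, 51.6 and 48.4 CPM in High 1 to 5. Only Low 5 and Control 5 kept the ranges of tpm4a from being separate. For tpm4a the log2 fold change was -1.02 ± 0.16 in the contrast (adjusted p = 0.054, edgeR), -0.94 ± 0.18 against Control and -1.09 ± 0.18 against High. Without Low 5 it was -1.14, called in the contrast (adjusted p = 0.0035) and beyond both groups (adjusted p = 0.036). In the contrast tpm4a was called in 3 of the 15 fits that left out 1 library.

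The gene mylk2 (ENSDARG00000031698) encodes a myosin light chain kinase of muscle. It had 0.205, 0.385, 0.555, 0.220 and 0.409 CPM in Low, against 1.88, 2.32, 1.33, 1.99 and 0.614 CPM in Control and 1.35, 1.69, 2.59, 1.67 and 1.23 CPM in High. All 5 Low libraries lay below the other 10, at a low level throughout. Its log2 fold change was -2.21 ± 0.35 (adjusted p = 0.054, edgeR), with -2.17 ± 0.38 against Control and -2.25 ± 0.38 against High.

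**Figure D2:**
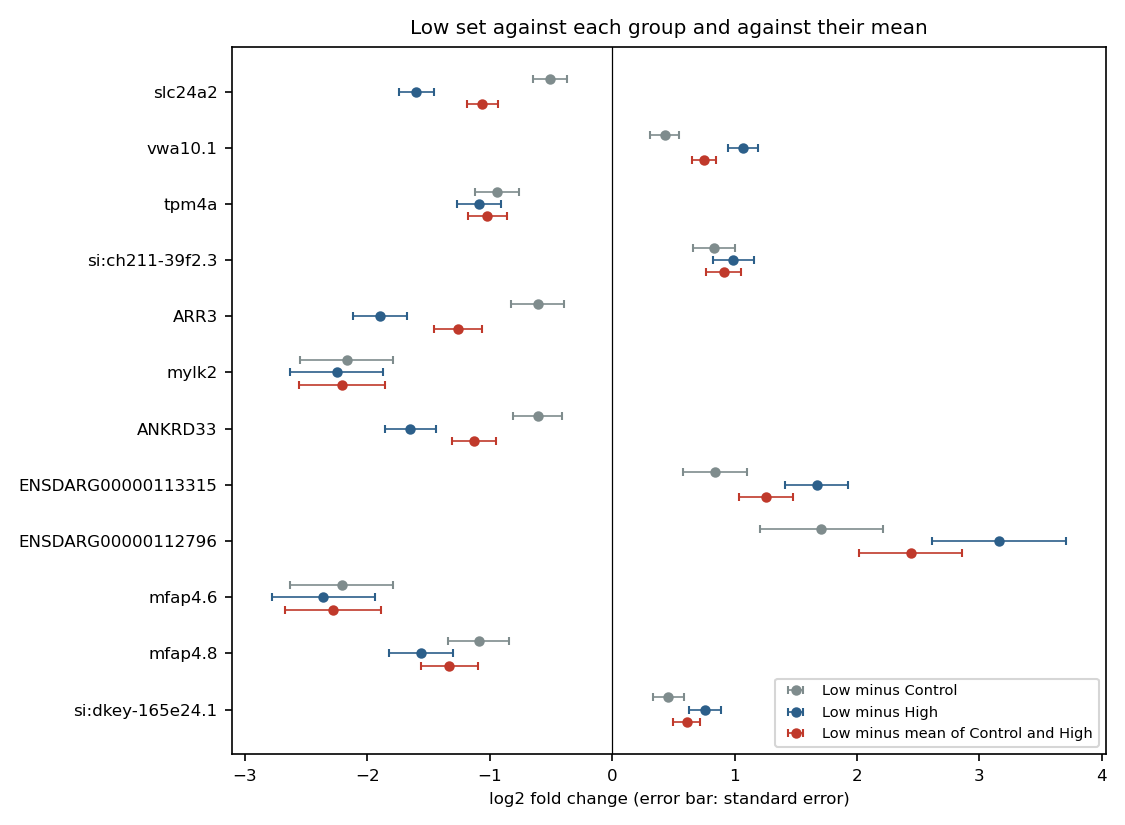
Log2 fold changes with standard errors (horizontal axis) for the same 12 genes: Low minus Control, Low minus High and Low minus the mean of both, from 1 fit to 15 libraries. For slc24a2 the value against High (-1.60) exceeds that against Control (-0.51) in size, while for tpm4a and mylk2 the values are close, at -1.09 and -0.94 for tpm4a and -2.25 and -2.17 for mylk2.

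Of 37 heart contraction genes, 0 were called. At an unadjusted p below 0.05, 21 were lower in Low (56.8%, against 6.23% of all genes) and 2 were higher (5.41%, against 9.69%). The median log2 fold change was -0.81 in the contrast, -0.67 against Control and -0.95 against High. Low stood below both groups at an unadjusted p below 0.05 in 16 of the 37, against 1.9% of all genes. The mean log2 CPM of the list was 2.65, 2.15, 2.91, 1.57 and 2.97 in Low, against 3.71, 3.65, 3.54, 3.66 and 2.63 in Control and 3.38, 3.75, 3.67, 3.50 and 3.59 in High. Low lay below every High library, and Control 5, lowest of its group, fell within the Low range. In whole larvae fewer cells of a type and less RNA per cell cannot be told apart. Without Low 5, 2392 genes were called in all, 1241 higher (5.59% of those tested) and 1151 lower (5.18%), and of the heart genes 13 were called lower and 1 higher, with a median of -0.92.

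Among heart genes, MYL7, the cardiac myosin light chain of zebrafish, had 12.7, 5.42, 30.6, 0.147 and 15.2 CPM in Low, against 107, 44.8, 79.7, 78.1 and 13.0 CPM in Control and 56.7, 72.3, 92.9, 43.7 and 55.0 CPM in High. Low 4 was close to 0 for this defining heart marker, and Control 5 lay within the Low range. The log2 fold change was -2.33 ± 0.76 (adjusted p = 0.18, edgeR). The atrial peptide nppa showed the same libraries apart, at 0.0367 CPM in Low 4 and 0.735 to 4.23 CPM in the other Low libraries, against 1.39 CPM in Control 5, 11.8 to 19.7 CPM in Control 1 to 4 and 7.73 to 25.2 CPM in High (log2 fold change -2.48 ± 0.76; adjusted p = 0.17). The cardiac and slow myosin heavy chain gene MYH7 had 1.54 to 44.9 CPM in Low, 17.5 to 92.9 CPM in Control and 43.5 to 70.1 CPM in High (log2 fold change -1.71 ± 0.57; adjusted p = 0.19).

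Other heart genes lay nearer to the threshold. TNNI1 (ENSDARG00000052708), a troponin I that also stands in the skeletal muscle list, had 4.62 to 9.99 CPM in Low, 7.45 to 25.2 CPM in Control and 13.3 to 25.0 CPM in High (log2 fold change -1.51 ± 0.27; adjusted p = 0.074, edgeR). SLC8A1 (ENSDARG00000013422), the sodium and calcium exchanger of heart muscle, had a log2 fold change of -1.24 ± 0.23, and CSRP3, the muscle LIM protein, -1.58 ± 0.29, both with an adjusted p of 0.074. HSPB7, a small heat shock protein of heart muscle that stands in the chaperone list, had -0.89 ± 0.16 (adjusted p = 0.074), and the cardiac troponin T gene TNNT2 (ENSDARG00000020610) -1.15 ± 0.24 (adjusted p = 0.085). Without Low 5, CSRP3 and HSPB7 were called beyond both groups, with adjusted p of 0.046 and 0.048. Each was called in the contrast in 2 of the 15 fits that left out 1 library.

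Over 69 skeletal muscle contraction genes the median log2 fold change was -0.32. Of these, 16 were lower at an unadjusted p below 0.05 (23.2%, against 6.23% of all genes) and 1 was higher (1.45%, against 9.69%), with 0 called. Their mean log2 CPM was 6.59, 6.39, 6.5 and 6.31 in Low 1 to 4 and 7.44 in Low 5, against 6.84 to 7.63 in Control and 6.78 to 7.35 in High. Low 1 to 4 lay below all other libraries, and Low 5 lay near the top of them. Without Low 5 the median was -0.61, and 28 members were called lower and 0 higher, against 5.18% and 5.59% of all genes in that fit. The fast myosin binding protein MYBPC2 had 80.4 to 106 CPM in Low, 145 to 345 CPM in Control and 69.1 to 264 CPM in High, with a log2 fold change of -0.96 ± 0.29 (adjusted p = 0.15).

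Log2 fold changes of extracellular matrix genes were smaller than those of heart genes. Of 76 members, 33 were lower at an unadjusted p below 0.05 (43.4%, against 6.23% of all genes) and 1 was higher (1.32%, against 9.69%). In this list 0 were called and 71 had a log2 fold change below 0 (median -0.37), where 50.3% of all genes stood above 0. The median was -0.42 against Control and -0.27 against High. Low stood below both groups at an unadjusted p below 0.05 in 8 of the 76, against 1.9% of all genes. The mean log2 CPM of the list overlapped, at 5.68 to 6.23 in Low, 6.09 to 6.55 in Control and 5.86 to 6.48 in High. The basement membrane collagen COL4A2 (ENSDARG00000104110) had 51.4, 51.3, 44.5, 49.2 and 66.3 CPM in Low, against 79.5, 64.4, 76.4, 92.9 and 74.8 CPM in Control and 69.2, 75.0, 99.0, 61.7 and 58.7 CPM in High. Low 5 alone reached into the ranges of both other groups. Its log2 fold change was -0.52 ± 0.13 (adjusted p = 0.12, edgeR). The fibrillar collagen COL5A1 (ENSDARG00000012593) and the matrix protein POSTN (ENSDARG00000043806) each had a log2 fold change of -0.48 ± 0.14 (adjusted p = 0.15). In both genes Low overlapped High. COL5A1 had 254 to 407 CPM in Low, 379 to 534 CPM in Control and 289 to 488 CPM in High. POSTN had 94.4 to 116, 134 to 186 and 94.6 to 177 CPM in the same order.

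Over 37 cartilage and bone genes the median log2 fold change was -0.34, with 0 called. At an unadjusted p below 0.05, 11 of them were lower (29.7%, against 6.23% of all genes) and 1 was higher (2.7%, against 9.69%). Their mean log2 CPM was 3.92 to 4.1 in Low 1 to 4 and 4.58 in Low 5, against 4.23 to 4.81 in Control and 4.1 to 4.74 in High. ENTPD5 (ENSDARG00000053481), needed for bone mineral in zebrafish, had 24.0 to 46.3 CPM in Low, 40.9 to 89.1 CPM in Control and 30.9 to 97.9 CPM in High (log2 fold change -1.12 ± 0.28; adjusted p = 0.12). IGFBP3, a binding protein of insulin-like growth factors, stands outside the cartilage and bone list. It had 33.5 to 40.8 CPM in Low, 48.9 to 63.7 CPM in Control and 43.6 to 68.2 CPM in High (log2 fold change -0.59 ± 0.11, adjusted p = 0.074). All its Low libraries lay below the 10 others. Of 52 growth hormone, insulin and IGF genes, 5 were lower (9.62%, against 6.23% of all genes) and 0 were called. In that list 1 was higher (1.92%, against 9.69%), and the median was -0.05. Without Low 5 the matrix list held 24 members called lower and the cartilage and bone list 12, with 0 and 1 called higher, where 5.18% of all genes were called lower and 5.59% higher.

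**Figure D3:**
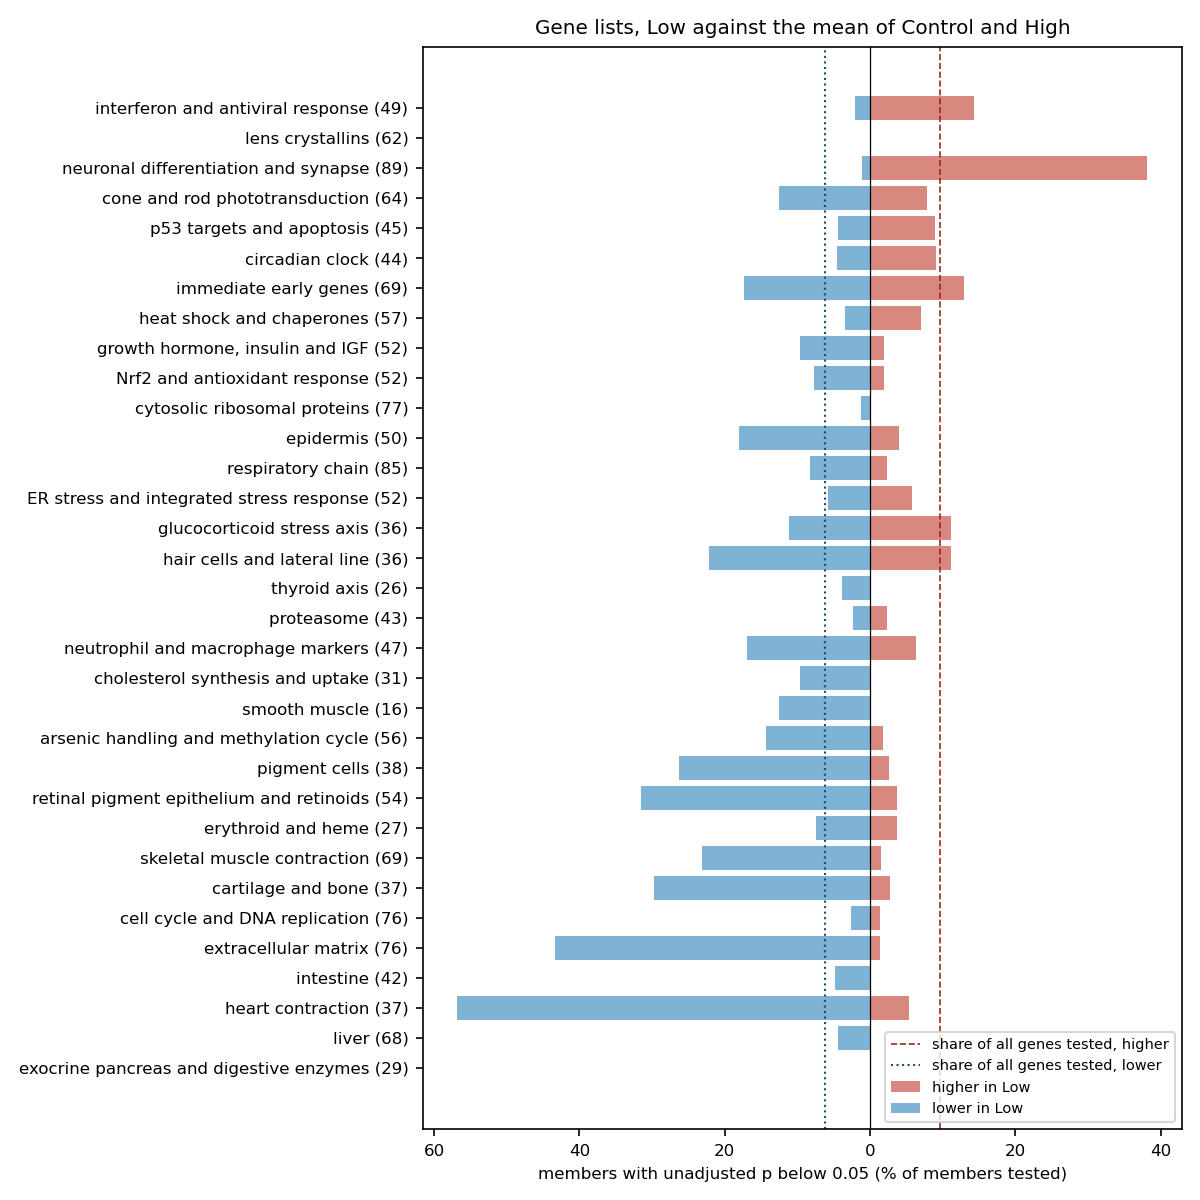
Share of the tested members of each of 33 gene lists with an unadjusted p below 0.05, higher in Low to the right and lower to the left (percent of members tested, number tested in brackets), ordered by median log2 fold change. Dashed and dotted lines mark the shares over all genes tested, 9.69% higher and 6.23% lower; heart contraction reaches 56.8% lower and neuronal genes 38.2% higher.

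Neuronal differentiation and synapse genes were the main list on the other side. Of 89 members, 34 were higher in Low at an unadjusted p below 0.05 (38.2%, against 9.69% of all genes). Another 1 was lower (1.12%, against 6.23%), 0 were called, and the median log2 fold change was 0.22. The mean log2 CPM of the list was 5.70, 5.72, 5.68 and 5.69 in Low 1 to 4 and 5.32 in Low 5, against 5.31 to 5.62 in Control and 5.27 to 5.52 in High. Low 1 to 4 were above every other library, and Low 5 lay near the bottom. GRIA2 (ENSDARG00000052765), a subunit of AMPA glutamate receptors, had 127, 135, 133, 154 and 72.2 CPM in Low, against 76.7, 96.2, 98.5, 71.8 and 89.3 CPM in Control and 91.7, 75.1, 106, 81.1 and 85.4 CPM in High. Its log2 fold change was 0.51 ± 0.14 (adjusted p = 0.14, edgeR), and 0.65 without Low 5 (adjusted p = 0.0044, and 0.039 beyond both groups). GRIA2 was called in the contrast in 1 of the 15 fits that left out 1 library. With the mean of the digestive genes as a covariate its adjusted p was 0.4, and with globin and heme genes 0.92.

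Other synaptic genes repeated this split between Low 5 and the rest of Low. NRXN3 (ENSDARG00000043746), a presynaptic adhesion protein, had 103 to 113 CPM in Low 1 to 4 and 71.2 CPM in Low 5, against 71.9 to 92.4 CPM in Control and 69.9 to 79.9 CPM in High. The vesicle fusion protein SNAP25 (ENSDARG00000020609) had 693 to 839 CPM in Low 1 to 4 and 484 CPM in Low 5, against 465 to 621 CPM in Control and 394 to 649 CPM in High. The log2 fold changes were 0.35 ± 0.09 for NRXN3 (adjusted p = 0.13, edgeR) and 0.44 ± 0.13 for SNAP25 (adjusted p = 0.16). An exception was SLITRK2, a synaptic adhesion gene outside the list, at 25.5, 26.2, 25.9, 22.8 and 21.2 CPM in Low, against 14.9, 17.4, 20.3, 17.3 and 17.5 CPM in Control and 20.6, 17.2, 16.0, 17.8 and 18.9 CPM in High. All 5 Low libraries of SLITRK2 lay above the other 10, and its log2 fold change was 0.45 ± 0.08 (adjusted p = 0.074). Without Low 5, 24 of the 89 list members were called higher, against 5.59% of all genes in that fit, and 0 lower. With the mean of the digestive genes as a covariate over all 15 libraries, 9 of the 89 were higher at an unadjusted p below 0.05 (10.1%, against 5.45% of all genes), with a median of 0.14. The heart list under that covariate had 23 of 37 lower (62.2%, against 5.46% of all genes).

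**Figure D4:**
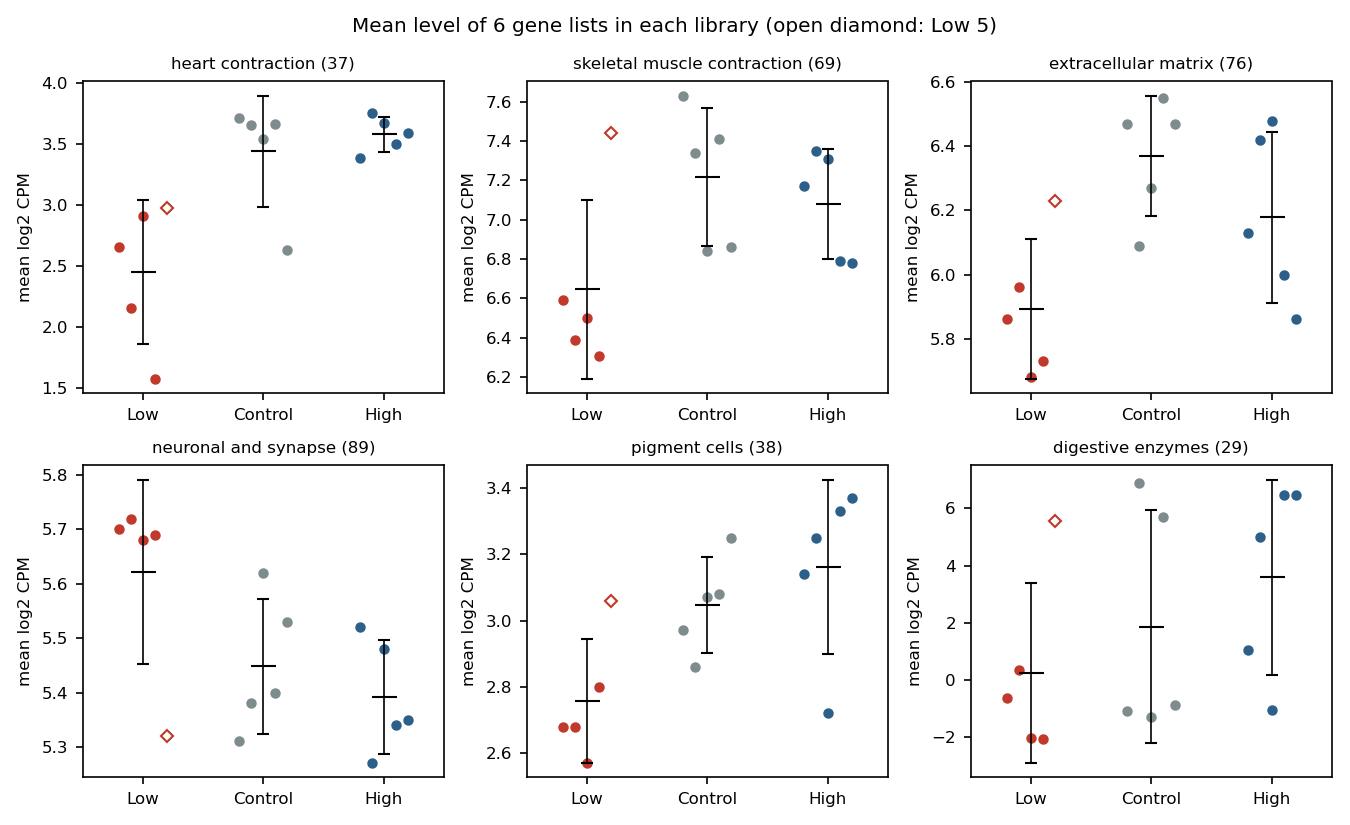
Mean log2 CPM (vertical axis) of 6 gene lists in each library of Low, Control and High, with the number of genes in brackets. Points are libraries, the open diamond is Low 5, and bars are group means with SD (n = 5); Low 5 lies within the range of Control and High for skeletal muscle (7.44) and neuronal (5.32) genes. For the 29 digestive enzyme genes it lies with Control 2 and 4 and High 2, 4 and 5 (5.57), and for heart genes (2.97) next to Low 3.

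Immediate early genes did not move in 1 direction. Of 69 members, 9 were higher (13.0%, against 9.69% of all genes) and 12 lower (17.4%, against 6.23%) at an unadjusted p below 0.05. Of the list 0 were called, and the median log2 fold change was -0.01. Among the higher ones were egr4, FOS and NPAS4, which firing induces in neurons. The transcription factor gene egr4 (ENSDARG00000077799) had 43.7, 47.1, 47.4, 54.7 and 10.2 CPM in Low 1 to 5, against 11.9, 33.4, 10.7, 12 and 16.6 CPM in Control 1 to 5 and 9.82, 6.86, 9.40, 12.3 and 7.90 CPM in High 1 to 5. Low 1 to 4 were above all other libraries, Low 5 was at the Control and High level, and Control 2 lay between. The log2 fold change was 1.70 ± 0.33 (adjusted p = 0.075, edgeR) and, without Low 5, 1.95 (adjusted p = 0.0028, and 0.045 beyond both groups). In the contrast egr4 was called in 2 of the 15 fits that left out 1 library.

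FOS (ENSDARG00000031683), a subunit of the AP-1 factor, had 23.6, 30.2, 28.9, 34.0 and 9.68 CPM in Low, against 17.9, 21.7, 16.5, 16.0 and 14.9 CPM in Control and 8.76, 6.79, 9.32, 9.80 and 8.03 CPM in High. The order Low 1 to 4, Control, High held without overlap, and Low 5 stood at the level of High. Its log2 fold change was 1.05 ± 0.20 (adjusted p = 0.074), and 1.26 without Low 5 (adjusted p = 0.00065). That was the only call of FOS in the contrast among the 15 fits that left out 1 library. NPAS4 (ENSDARG00000055752), which is induced by calcium entry in neurons, had 52.7 to 83.6 CPM in Low 1 to 4 and 20.7 CPM in Low 5, against 31.2 to 51.8 CPM in Control and 16.9 to 33.4 CPM in High. For NPAS4 the log2 fold change was 0.97 ± 0.25 (adjusted p = 0.12, edgeR). FOSL1, another AP-1 subunit, went the other way: 0.822 to 1.23 CPM in Low lay below 1.27 to 1.88 CPM in Control and 1.53 to 12.5 CPM in High (log2 fold change -1.33 ± 0.47; adjusted p = 0.2).

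The clock-linked repressors BHLHE40 and NR1D1 differed in direction. BHLHE40 (ENSDARG00000004060) had 69.2 to 86.9 CPM in Low 1 to 4 and 45.3 CPM in Low 5, against 81.9 CPM in Control 2, 39.2 to 44.7 CPM in the other Control libraries and 28.1 to 37.9 CPM in High (log2 fold change 0.82 ± 0.17; adjusted p = 0.083). NR1D1 (ENSDARG00000033160) had 1.74 to 3.32 CPM in Low, 2.68 to 4.1 CPM in Control and 2.93 to 5.94 CPM in High (log2 fold change -0.79 ± 0.21; adjusted p = 0.12). The circadian clock list had 4 of 44 members higher (9.09%, against 9.69% of all genes) and 2 lower (4.55%, against 6.23%), with a median of 0.02. Collection times are not given in the labels.

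Pigment and retinal pigment epithelium genes gave an uneven picture. Of 54 genes of the retinal pigment epithelium and retinoids, 17 were lower in Low at an unadjusted p below 0.05 (31.5%, against 6.23% of all genes). Another 2 were higher (3.7%, against 9.69%) and 0 were called (median log2 fold change -0.25). The median was -0.14 against Control and -0.44 against High, and 0.25 for High against Control. Low stood below both groups at an unadjusted p below 0.05 in 3 of the 54, against 1.9% of all genes. It stood above both in 0, against 2.52%. RPE65 (ENSDARG00000007480), the isomerase of the visual cycle, had 5.30, 4.13, 5.39, 5.90 and 3.77 CPM in Low, against 4.4, 4.78, 20.4, 6.08 and 21.3 CPM in Control and 56.1, 31.9, 6.07, 74.0 and 68.4 CPM in High. All Low libraries, Control 1, 2 and 4 and High 3 were at one level, and the remaining libraries were higher. The log2 fold change was -2.25 ± 0.57 (adjusted p = 0.12, edgeR).

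The melanin gene DCT split along the same libraries. So did pmelb, except that Control 4 (20.0 CPM) lay above its Low range of 7.40 to 13.3 CPM. DCT, an enzyme of melanin synthesis, had 6.12 to 11.9 CPM in Low, against 9.10 to 10.3 CPM in Control 1, 2 and 4 and 41.4 and 41.7 CPM in Control 3 and 5. In High it had 6.57 CPM in High 3 and 27.1 to 48.3 CPM in the others. The log2 fold changes were -1.72 ± 0.52 for DCT (adjusted p = 0.16) and -1.60 ± 0.45 for pmelb (adjusted p = 0.14). Of 38 pigment cell genes, 10 were lower (26.3%, against 6.23% of all genes), 1 was higher (2.63%, against 9.69%) and 0 were called. The iridophore gene pnp4a, of purine synthesis in reflecting cells, had 5.45 to 6.71 CPM in Low, 3.55 to 11.1 CPM in Control and 12.7 to 27.6 CPM in High (log2 fold change -1.08 ± 0.24; adjusted p = 0.095). Its log2 fold change was -0.44 ± 0.27 against Control and -1.73 ± 0.27 against High.

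Immune genes pointed in both directions. Of 47 neutrophil and macrophage markers, 8 were lower (17.0%, against 6.23% of all genes), 3 were higher (6.38%, against 9.69%) and 0 were called. The lower ones included 3 genes of the mfap4 family, of which a member marks macrophages in zebrafish. These are near copies of each other, and how reads were shared among them is not given, so their values are uncertain. mfap4.6 had 0.534, 0.595, 0.317, 0.513 and 0.318 CPM in Low, against 3.27, 2.92, 1.33, 2.11 and 1.08 CPM in Control and 2.98, 4.51, 1.64, 1.49 and 1.15 CPM in High, with no overlap (log2 fold change -2.28 ± 0.39; adjusted p = 0.074, edgeR). The copy mfap4.8 had -1.33 ± 0.23 (adjusted p = 0.074) and mfap4.7 -1.25 ± 0.31 (adjusted p = 0.12). MPEG1 (ENSDARG00000043093), the pore protein by which zebrafish macrophages are usually marked, pointed the other way, at 24.1 to 43.2 CPM in Low, 22.6 to 32.5 CPM in Control and 10.3 to 22.9 CPM in High (log2 fold change 0.69 ± 0.17; adjusted p = 0.12). Most of that lay between Low and High, at 1.10 ± 0.21, with 0.28 ± 0.20 against Control. Of 49 interferon and antiviral genes 7 were higher (14.3%, against 9.69% of all genes) and 1 was lower (2.04%, against 6.23%). Their median was 0.24 in the contrast, 0.08 against Control and 0.37 against High.

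Genes that handle arsenic had no called member. AS3MT (ENSDARG00000027572), the arsenic methyltransferase, had 9.70, 12.5, 15.8, 16.2 and 14.1 CPM in Low, against 16.6, 14.4, 13.1, 13.8 and 15.4 CPM in Control and 12.7, 15.8, 16.7, 13.3 and 15.8 CPM in High. Low 1 and Low 2 lay below every Control and High library, and Low 3 to 5 lay within both ranges. The log2 fold change of AS3MT was -0.11 ± 0.12 (adjusted p = 0.65, edgeR). Of 56 genes of arsenic handling and the methylation cycle, 8 were lower (14.3%, against 6.23% of all genes) and 0 were called (median -0.21). In that list 1 was higher (1.79%, against 9.69%). Among the lower ones, GNMT, which spends methyl groups on glycine, had a log2 fold change of -0.64 ± 0.17 (adjusted p = 0.13). The mean log2 CPM of the arsenic list was 3.3 to 3.59 in Low 1 to 4 and 4.3 in Low 5. It was 3.48 to 4.27 in Control and 3.48 to 4.45 in High. With the mean of the digestive genes as a covariate, the median of the arsenic list was -0.09. Then 7 members were lower (12.5%, against 5.46% of all genes) and 2 higher (3.57%, against 5.45%). Of 52 Nrf2 and antioxidant genes, 4 were lower (7.69%, against 6.23% of all genes), 1 was higher (1.92%, against 9.69%) and 0 were called. The gene nfe2l2b, a relative of the Nrf2 gene, had 1.29 to 2.95 CPM in Low, 2.02 to 3.28 CPM in Control and 4.32 to 5.57 CPM in High (log2 fold change -0.81 ± 0.18; adjusted p = 0.095). For nfe2l2b the value was -0.37 ± 0.20 against Control and -1.26 ± 0.20 against High. Heat shock and chaperone genes stood at 4 of 57 higher (7.02%, against 9.69% of all genes) and 2 lower (3.51%, against 6.23%), with a median of -0.03.

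The pancreas and liver lists had the most negative medians of all lists, with few members near the threshold and wide differences between libraries of each group. For exocrine pancreas and digestive enzymes the median log2 fold change was -1.89, yet 0 of 29 members reached an unadjusted p of 0.05. Its mean log2 CPM was -2.05 to 0.34 in Low 1 to 4 and 5.57 in Low 5, against -1.28 to -0.86 in Control 1, 3 and 5, 5.69 to 6.88 in Control 2 and 4, -1.05 and 1.07 in High 3 and 1, and 5.01 to 6.48 in the other High libraries. Liver genes had a median of -1.28, with 3 of 68 lower (4.41%, against 6.23% of all genes). Intestine genes had a median of -0.74, with 2 of 42 lower (4.76%). Without Low 5 the medians were -7.32 for pancreas and digestive enzymes, -3.52 for liver and -4.09 for intestine. At an unadjusted p below 0.05, 27 of 29, 34 of 68 and 33 of 42 members were then lower in that order of lists, against 15.6% of all genes. Of these lists just 1, 2 and 1 members were called lower, where 5.18% of all genes were. Trypsinogen prss1 had 0.990 to 18.5 CPM in Low 1 to 4 and 1500 CPM in Low 5. The cell cycle and DNA replication list had a log2 fold change below 0 in 75 of 76 members, where 50.3% of all genes stood above 0. At an unadjusted p below 0.05, 2 were lower (2.63%, against 6.23% of all genes) and 1 was higher (1.32%, against 9.69%), with 0 called. The mean log2 CPM of the list was 3.56 to 3.75 in Low 1 to 4 and 4.94 in Low 5. Without Low 5, 28 of its members were called lower and 1 higher, against 5.18% and 5.59% of all genes in that fit. The same fit without Low 5 gave called members in every list other than lens crystallins and cytosolic ribosomal proteins. With 5.18% of all genes called lower and 5.59% higher, a called member alone says little about a list. Of 38 pigment cell genes 6 were called lower and 1 higher in that fit. Of 54 genes of the retinal pigment epithelium and retinoids 5 were called lower and 0 higher. For 69 immediate early genes the counts were 5 lower and 7 higher. For 56 genes of arsenic handling and the methylation cycle they were 8 lower and 0 higher. Whether these counts exceed the shares over all genes was not tested.

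Since Low 1 to 4 were all poor in pancreas transcripts, the contrast was also computed within the libraries whose pancreas list had a mean log2 CPM under 3, which were Low 1 to 4, Control 1, 3 and 5 and High 1 and 3. There 1135 of 22426 genes tested were called, 436 higher and 699 lower, and both called genes of the full set were among them. Digestive content still differed, with median log2 fold changes of -0.28 for pancreas, -1.59 for intestine and -1.95 for liver genes. The mean of the digestive genes was 2.46 in Control 1 and 3.16 in High 1, against -0.72 to 1.4 in Low 1 to 4. Control 3, Control 5 and High 3 lay within that Low range (0.81, -0.31 and -0.34). In these libraries the log2 fold changes were -1.08 for slc24a2 (adjusted p = 0.012, edgeR), 0.79 for vwa10.1 (adjusted p = 0.021), -1.17 for tpm4a (adjusted p = 0.022) and 2.1 for egr4 (adjusted p = 0.00085). Of these, egr4 was the 1 gene called beyond both groups in those libraries (adjusted p = 0.0096). The split left out Low 5 (10.2 CPM in egr4) and Control 2 (33.4 CPM), each far from the rest of its group. This call therefore depends on which libraries were left out, and egr4 was not called beyond both groups over all 15 libraries. With the mean of the digestive genes as a covariate over all 15 libraries, 3 genes were called: slc24a2 (adjusted p = 0.044), vwa10.1 (adjusted p = 0.046) and mfap4.8 (adjusted p = 0.046). With globin and heme genes as the covariate 0 were called, and slc24a2 had an adjusted p of 0.21, vwa10.1 of 0.27.

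The count of calls depended on which libraries entered. It was 2392 without Low 5, 29 without Control 2, 11 without Control 5 and 3 without High 2, and it was 0 without Low 1 or without Low 3. DESeq2 called 678 genes and limma voom with sample weights 4249. By DESeq2, slc24a2 had an adjusted p of 8.5e-12 and vwa10.1 of 3.2e-07.

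**Figure D5:**
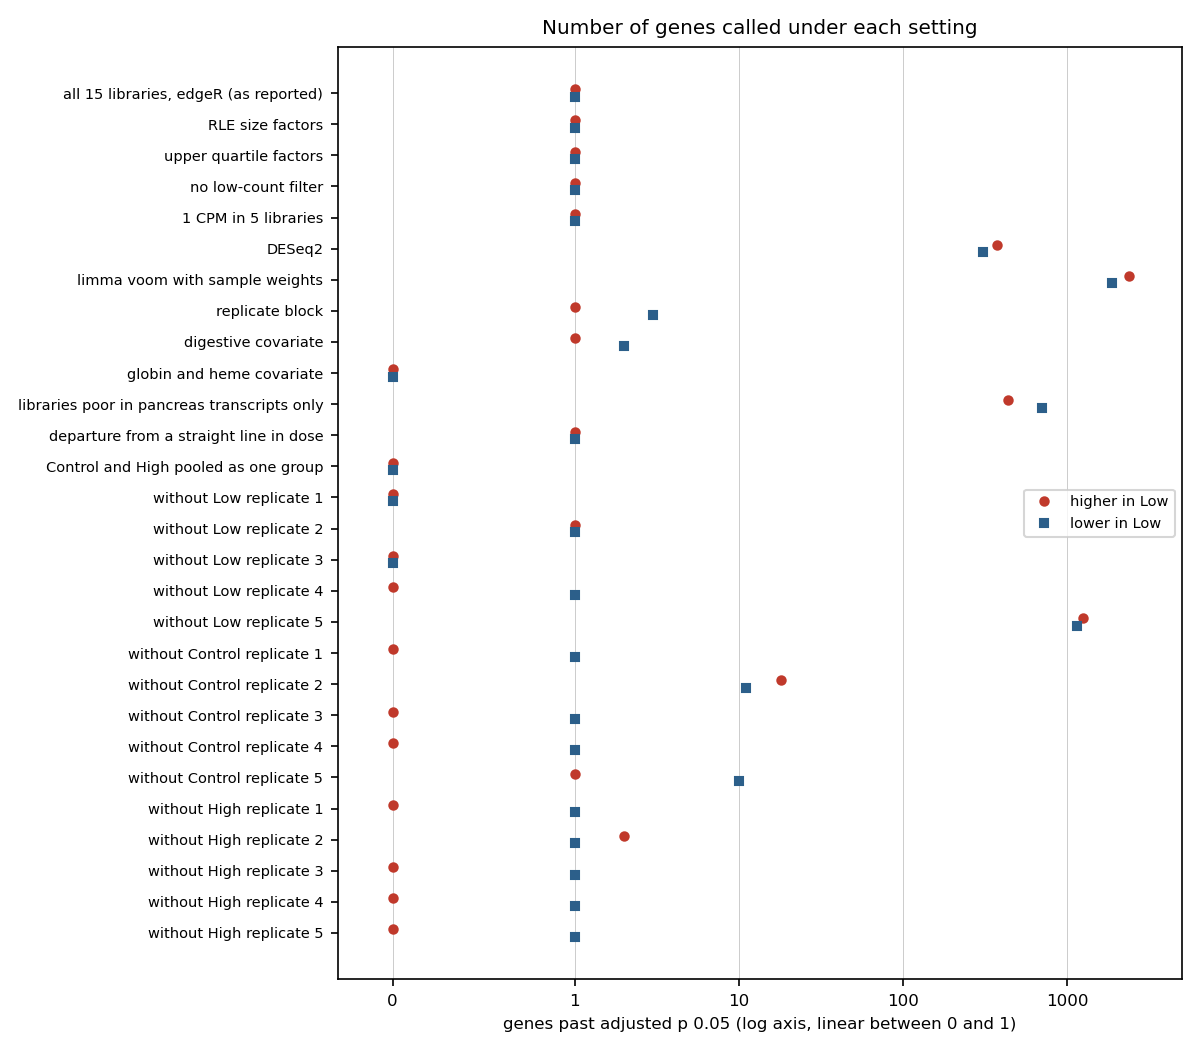
Number of genes with an adjusted p below 0.05 in the contrast under each setting (log axis, linear between 0 and 1), higher in Low as circles and lower in Low as squares. Most settings give 0 to 4 genes, while leaving out Low 5 gives 1241 higher and 1151 lower, and DESeq2 gives 373 and 305. The largest count is that of limma voom, at 2382 higher and 1867 lower. The libraries poor in pancreas transcripts give 436 and 699, and leaving out Control 2 or Control 5 gives 29 or 11 genes in all.

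Further genes of the set without overlap complete the picture. On the higher side, si:ch211-39f2.3 had 14.3, 15.5, 9.95, 11.6 and 12.4 CPM in Low, against 7.90, 8.20, 5.37, 7.75 and 6.59 CPM in Control and 6.44, 8.75, 6.61, 4.92 and 5.32 CPM in High (log2 fold change 0.91 ± 0.14; adjusted p = 0.054, edgeR). Its values against the groups were alike, 0.83 ± 0.17 against Control and 0.99 ± 0.17 against High. GPC3, a glypican that binds growth factors at the cell surface, had 6.23 to 7.49 CPM in Low, 4.15 to 5.91 CPM in Control and 4.04 to 5.24 CPM in High (log2 fold change 0.53 ± 0.10; adjusted p = 0.075). The monoglyceride lipase gene mgll averaged 77.0 ± 5.04 CPM in Low, 65.3 ± 2.88 CPM in Control and 63.1 ± 3.45 CPM in High (SD, n = 5 each; log2 fold change 0.26, adjusted p = 0.095). On the lower side, the citrate transporter gene slc13a5b averaged 1.23 ± 0.52 CPM in Low, 2.80 ± 0.51 CPM in Control and 3.39 ± 1.2 CPM in High (SD, n = 5 each; log2 fold change -1.32 ± 0.27, adjusted p = 0.078). Of the 35 genes without overlap, 20 had an adjusted p below 0.1 in the contrast and 0 were among the 2 called.

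Of the remaining genes with the smallest p, 3 were higher in Low. ENSDARG00000113315 had 9.31 to 12.4 CPM in Low, 3.65 to 9.41 CPM in Control and 1.90 to 5.05 CPM in High (log2 fold change 1.26 ± 0.22; adjusted p = 0.074, edgeR). ENSDARG00000112796 had 0.364 to 2.70 CPM in Low, 0.188 to 0.774 CPM in Control and 0.0689 to 0.328 CPM in High (log2 fold change 2.44 ± 0.42; adjusted p = 0.074). The files give neither of them a name. si:dkey-165e24.1 had 16.9 to 24.8 CPM in Low, 13.8 to 18.1 CPM in Control and 11.1 to 14.7 CPM in High (log2 fold change 0.61 ± 0.11; adjusted p = 0.074).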

How the data were processed

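The authors deposited 1 table of raw read counts per Ensembl gene and library, per the file headers, with no normalization. Among tools, the processing notes of the submitters list DESeq2, Trimmomatic, FastQC and MultiQC, with no version. The builds they list are GRCz11 and, beside it, the mouse build mm10. Neither aligner, counter, annotation nor strand setting is named (not given in the sources used here), so counts of overlapping, antisense and near-identical genes are uncertain. All 15 library columns were used, and 15 lines naming no gene held no counts. Of 32520 identifiers, 29201 had a symbol in the gene name table, and 6136 share one. Besides ARR3 and CNGA3, the symbols RPE65, TNNI1, SLC8A1, TNNT2, POSTN, GRIA2, SNAP25 and NPAS4 are shared with another tested gene. The values given for these hold for the printed identifier alone.

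Tests used R 4.3.3 and edgeR 4.0.16: filterByExpr, TMM factors, a robust quasi-likelihood fit with 1 coefficient per group, and Benjamini-Hochberg adjustment (threshold 0.05). CPM were computed from TMM-scaled totals, with a prior count of 2 on the log2 scale. Standard errors are the log2 fold change over the square root of F. The test was tried on simulated data first. Alternatives were other scalings and filters, DESeq2 1.42.0, limma 3.58.1 voom, covariates, a replicate block and each library left out.

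The 33 gene lists were chosen with earlier results of these data known, as was the contrast itself. Of 1828 written names 94 matched nothing. The rule named the called genes and, since fewer than 5 were called, the 10 next by p. The 60 other genes with values were chosen after their values were seen. No list was tested.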

Additional observations from a re-analysis of the deposited data

Results flagged for a closer look

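In 31 of 318 groups of 5 libraries, 1 library lay far from the other 4 by Dixon's test. For independent, normally distributed values chance flags about 1 in 20 groups. Lists that share genes, and genes chosen after their values were seen, do not meet that condition, so no excess is claimed. The far library was Low 5 in 16 of them, Control 2 in 6, and Control 5 and High 3 in 3 each.

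Low 5 stood above the other Low libraries in mfap4.8 (8.41 CPM), NR1D1 (3.32 CPM), cdkn1a (6.68 CPM), prss1 (1500 CPM) and the liver fatty acid binding protein gene fabp10a (419 CPM), and below them in egr4 (10.2 CPM) and NRXN3 (71.2 CPM). Among mean log2 CPM of lists it was the high library for skeletal muscle (7.44), smooth muscle (3.66), cartilage and bone (4.58), intestine (4.66), cholesterol synthesis and uptake (4.98), Nrf2 and antioxidant response (4.68), cell cycle (4.94) and growth hormone, insulin and IGF (4.07). For neuronal genes it was the low one (5.32).

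In Control, library 2 was high in egr4 (33.4 CPM), BHLHE40 (81.9 CPM), hsp70l (36.3 CPM) and the mean log2 CPM of phototransduction genes (5.18), and low in ARR3 (25.8 CPM) and the mean log2 CPM of cell cycle genes (3.45). Control 5 was low in MYH7 (17.5 CPM) and in the mean log2 CPM of heart genes (2.63), and had the largest total, 59.9 M counts. Control 1 was high in the mean log2 CPM of p53 targets (4.06).

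In High, library 3 was high in FOSL1 (12.5 CPM) and CAMK2A (53.6 CPM) and low in the mean log2 CPM of liver genes (0.19). High 2 was high in hpxa (289 CPM) and High 1 in TECTB (8.82 CPM).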

How the results depend on the processing

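The count of 2 called genes was the same with RLE and upper quartile factors, without the low-count filter and with a filter of 1 CPM in 5 libraries. It was also 2 for the departure from a straight line in dose. That contrast weights Control and High nearly equally, so it almost repeats the main one and its count is no separate check. The count of called genes was 678 by DESeq2, 4249 by limma voom, 4 with the replicate block and 3 with the digestive covariate. It was 1135 within the libraries poor in pancreas transcripts, 0 with the globin and heme covariate and 0 with Control and High pooled. It was 1 at an adjusted p of 0.01 and 1 for a fold of at least 2. Leaving out 1 library gave 0 to 2392 calls, and for genes beyond both groups 0 to 113, the highest without Low 5 in each case. Genes beyond both groups numbered 10 by DESeq2, 0 by limma voom, 1 with the replicate block (mfap4.6) and 1 within the pancreas-poor libraries, against 0 in the full set. The cause of these differences was not tested. Same-numbered libraries deviated from their group means with correlations of -0.54 to 0.54, 9 of 15 above 0.1, and in 10 of 30 cases a library correlated best with its own number, so the replicate numbers were not taken as pairs. Under the block slc24a2 had an adjusted p of 0.037 and vwa10.1 of 0.11. Over 72 named genes and their 1942 values under alternatives, 17 lost a call, 243 gained one and 4 changed sign, none of them past the threshold where the sign changed (adjusted p of 0.69 or more). These were hsp70l (log2 fold change -0.02 with the globin and heme covariate, against 0.36), prss1 (0.18 with the digestive covariate, against -1.75) and the alpha globin gene hbaa1 (0.56 by voom, and -0.45 to 0 with 1 library left out, against -0.24). Without Low 5 the remaining Low libraries were all poor in digestive transcripts, so diet and digestive content cannot be told apart in that comparison. Low 5 also lay far from the rest of Low in egr4, NRXN3, mfap4.8, NR1D1 and cdkn1a. The calls of these genes in the fit without Low 5 depend on leaving it out. Depth limits genes below about 1 CPM, such as mylk2 and mfap4.6.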

Other observations

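Hair cell and otolith genes had 8 of 36 members lower in Low at an unadjusted p below 0.05 (22.2%, against 6.23% of all genes). Another 4 were higher (11.1%, against 9.69%), with 0 called. TECTB, a tectorin of the membrane over hair cells, had 2.6 to 6.5 CPM in Low, 3.60 to 10.4 CPM in Control and 7.14 to 8.82 CPM in High (log2 fold change -0.88 ± 0.23; adjusted p = 0.13, edgeR). The otolith matrix gene otomp had 10.6 to 28.1 CPM in Low, 16.2 to 36.7 CPM in Control and 24.7 to 39.8 CPM in High (log2 fold change -0.79 ± 0.24; adjusted p = 0.15). The cell cycle inhibitor gene cdkn1a had 2.75 to 3.16 CPM in Low 1 to 4 and 6.68 CPM in Low 5, against 4.81 to 7.33 CPM in Control and 6.90 to 11.8 CPM in High. Without Low 5 its log2 fold change was -1.29, with an adjusted p of 0.0035 in the contrast and 0.045 beyond both groups. These calls depend on leaving out the library that lay far from the rest of Low in this gene. Over all 15 libraries the adjusted p of cdkn1a in the contrast was 0.11 (edgeR). It was called in 1 of the 15 fits that left out 1 library. The p53 target list as a whole had 4 of 45 members higher (8.89%, against 9.69% of all genes) and 2 lower (4.44%, against 6.23%).

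KLF9, a transcription factor induced by glucocorticoid and thyroid hormone, had 3.82, 14.3, 3.25, 13.3 and 24.0 CPM in Low, against 86.9, 29.0, 47.4, 64.8 and 34.3 CPM in Control and 20.6, 20.8, 47.2, 8.17 and 19 CPM in High. Low lay below Control in every library and overlapped High. The log2 fold change was -1.57 ± 0.52 in the contrast (adjusted p = 0.19, edgeR), with -2.16 ± 0.58 against Control and -0.98 ± 0.56 against High. Of 36 glucocorticoid axis genes 4 were higher and 4 lower in Low (11.1% each, against 9.69% and 6.23% of all genes). Of 26 thyroid axis genes 0 were higher and 1 lower (3.85%). The hatching enzyme relative hce2l1 had 0.105 to 0.772 CPM in Low, 0.684 to 3.01 CPM in Control and 0.802 to 3.90 CPM in High (log2 fold change -2.67 ± 0.50; adjusted p = 0.074). In several genes near the top by p, the contrast rested mostly on the difference from High. Examples are rxrga, pnp4a, nfe2l2b and slc1a8b, each with an unadjusted p above 0.05 for Low against Control (edgeR). High against Control was called in rxrga (adjusted p = 0.022, edgeR), pnp4a (adjusted p = 0.048) and slc1a8b (adjusted p = 0.0017). It was not called in nfe2l2b (adjusted p = 0.059). The glutamate transporter gene slc1a8b had 2.27 to 4.02 CPM in Low, 1.97 to 6.40 CPM in Control and 0.232 to 0.493 CPM in High, with a log2 fold change of 1.35 ± 0.26 in the contrast (adjusted p = 0.074) and -0.32 ± 0.30 against Control.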
